A study of Mus musculus with 12 samples.

Results

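The genes described here encode 8 surface receptors and adhesion molecules that progenitors use to enter the thymus: the chemokine receptors Ccr9, Ccr7 and Cxcr4, the selectin ligand Selplg (PSGL-1), the integrin subunits Itga4, Itgb7 and Itgb1, and the sphingosine 1-phosphate receptor S1pr1. They were chosen by symbol from the known steps of thymus entry, and all 8 are among the 23420 genes of the deposited table. The libraries come from mouse fetal liver, the main blood-forming organ of the embryo, and each was made from a tube of 100 lineage-negative c-Kit+ cells sorted with or without PIR, the paired immunoglobulin-like receptor that marks part of the early lymphoid progenitors. The 4 groups, with 3 libraries each, are PIR+ KO, PIR+ wild type, PIR- KO and PIR- wild type. The labels name neither the deleted gene, nor the strain, nor any Cre driver, and leave it unsaid if a group was drawn from separate embryos, so every p-value below measures the spread between these samples only.

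Groups were taken from the sample titles. The field that lists the sort markers gives the opposite PIR sign in 6 of the 12 libraries, and the embryonic day (E12.5 or E14.5) follows that field, while the series title gives E12.5 alone. By that field, E12.5 applies to 2 of the 6 KO libraries and 4 of the 6 wild-type libraries. The Pira genes and Lilrb3, which encode PIR, were listed at 0 in the 6 libraries titled PIR-, so the messages follow the titles. Messages of 12 B-lineage markers summed to 40.7 to 63.7 in PIR+ KO, 45.4 to 78.1 in PIR+ wild type, 759 to 1160 in PIR- KO and 886 to 1173 in PIR- wild type libraries. Values are normalised molecule counts on the authors' scale, and the sums per library were 203135 to 284648 in PIR+ and 155374 to 222700 in PIR- libraries. In such bulk libraries, fewer cells of a type and less message per cell cannot be told apart.

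Blood-borne progenitors reach the thymus in steps. PSGL-1 binds P-selectin on vessel walls and lets cells roll, CCR9 and CCR7 respond to the chemokines CCL25 and CCL19/CCL21 made by thymic stroma, and the integrins that ITGA4 forms with ITGB1 or ITGB7 then anchor cells to VCAM-1 or MAdCAM-1. CXCR4 responds to CXCL12, which holds progenitors in liver and bone marrow niches, and S1PR1 senses sphingosine 1-phosphate, which guides cells into blood. In the mouse embryo the earliest progenitors enter the thymus before it has vessels, and CCR7 and CCR9 both take part in that entry.

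Ccr9 and Ccr7 messages were high in PIR+ cells and low in PIR- cells of both genotypes, while Cxcr4 was lower in PIR+ than in PIR- cells. Within PIR+ cells, Ccr9 and Selplg fell in KO relative to wild type, and the other members did not pass that test. In PIR- cells no member passed the test between KO and wild type. Of the integrin subunits, Itgb1 was higher in PIR+ cells of both genotypes on the deposited scale, and Itgb7 was listed at 0 in 5 of the 6 PIR- libraries.

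**Figure D1:**
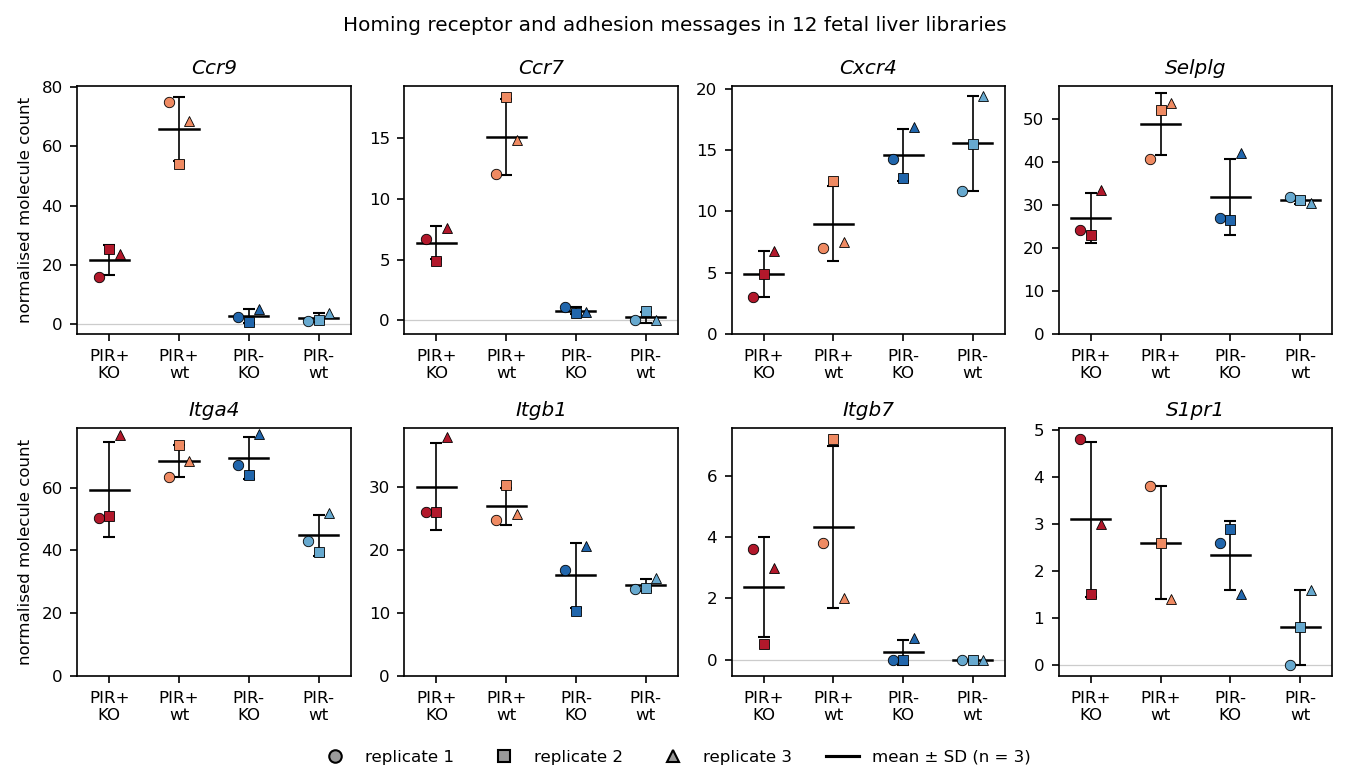
Normalised molecule count (y axis, linear, a separate scale for each gene) of the 8 members in PIR+ KO, PIR+ wild type (wt), PIR- KO and PIR- wild type libraries; each point is 1 library, horizontal bars are means and error bars are SD (n = 3). Ccr9 lies between 15.8 and 25.5 in PIR+ KO and between 53.9 and 74.9 in PIR+ wild type libraries, and at 5.1 or less in all 6 PIR- libraries.

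Ccr9, the receptor for CCL25, is encoded on mouse chromosome 9 from 123767211 to 123783457 (RefSeq, GRCm38.p6). Its normalised counts in replicates 1, 2 and 3 were 15.8, 25.5 and 23.6 in PIR+ KO, against 74.9, 53.9 and 68.5 in PIR+ wild type libraries. They were 2.6, 0.6 and 5.1 in PIR- KO and 1.1, 1.5 and 3.9 in PIR- wild type libraries. The PIR+ values of each genotype lay above every PIR- value, and the 3 PIR+ KO libraries lay below the 3 PIR+ wild type libraries. An estimated 26 to 52 molecules per library stood behind the PIR+ KO values and 82 to 118 behind the PIR+ wild type values, but only 1 to 7 behind those of PIR- KO and 2 to 5 behind those of PIR- wild type.

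Tests used limma on log2(value + 1) with 4 group means and Benjamini-Hochberg adjustment over the 4542 genes that reached 10 in 3 or more libraries, and a gene was called at an adjusted p under 0.05. The added 1 shrinks fold changes of genes with low values. For Ccr9, PIR+ over PIR- was 2.76 ± 0.34 (log2 fold change ± SE) in KO (limma, adjusted p = 6.19e-11) and 4.49 ± 0.34 in wild type (limma, adjusted p = 1.29e-21). The ratio of group means was 7.82 in KO and 30.4 in wild type. Ccr9 passed the filter only through its PIR+ libraries, so a difference between the subsets was a condition of its being tested.

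KO over wild type in PIR+ cells was -1.57 ± 0.34 for Ccr9 (limma, adjusted p = 0.00226), a ratio of means of 0.329. By size of the log2 fold change Ccr9 stood at rank 17 of the 4542 genes tested. This call was lost in limma without the PIR+ wild type replicate 1 (-1.48, adjusted p = 0.0523) and under 5 other alternatives, with a negative sign in each of the 24 alternatives run. In PIR- cells the KO effect was 0.15 ± 0.34 (limma, adjusted p = 0.879). The difference between the 2 KO effects was -1.72 ± 0.48 and did not pass (limma, adjusted p = 0.0769). It passed without the PIR- wild type replicate 3 (-2.09, limma, adjusted p = 0.00332) and without the PIR- KO replicate 2 (-2.24, limma, adjusted p = 0.00268).

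Embryonic day as labelled did not change the sign of the Ccr9 contrast in PIR+ cells. At E12.5 the 1 PIR+ KO library had 23.6, against a mean of 64.4 in 2 PIR+ wild type libraries (-1.39). At E14.5 the mean of 2 PIR+ KO libraries was 20.6, against 68.5 in the 1 PIR+ wild type library (-1.72). In the authors' deposited table, the p-values for Ccr9 were 3.91e-18 between the wild type subsets and 2.14e-11 for PIR+ KO against PIR+ wild type, with no statement of whether they are adjusted.

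The genes on either side of Ccr9 were read to see whether the contrast extended beyond it. Within 300000 bases on each side the RefSeq annotation holds 12 protein-coding genes with Ccr9 itself, all in the table, of which 4 are at 0 in all libraries and 4 reach a value of 10. Lztfl1, which encodes a cilium and trafficking protein, averaged 11.5 ± 2.37 in PIR+ KO, 15.3 ± 3.50 in PIR+ wild type, 4.60 ± 2.08 in PIR- KO and 4.33 ± 0.93 in PIR- wild type libraries (SD, n = 3 each). Like Ccr9, it reached 10 in PIR+ libraries only, so its subset difference was a condition of its being tested. Its KO effect in PIR+ cells was -0.38 ± 0.35 (limma, adjusted p = 0.940). Limd1 and Sacm1l did not pass any test between subsets or genotypes.

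**Figure D2:**
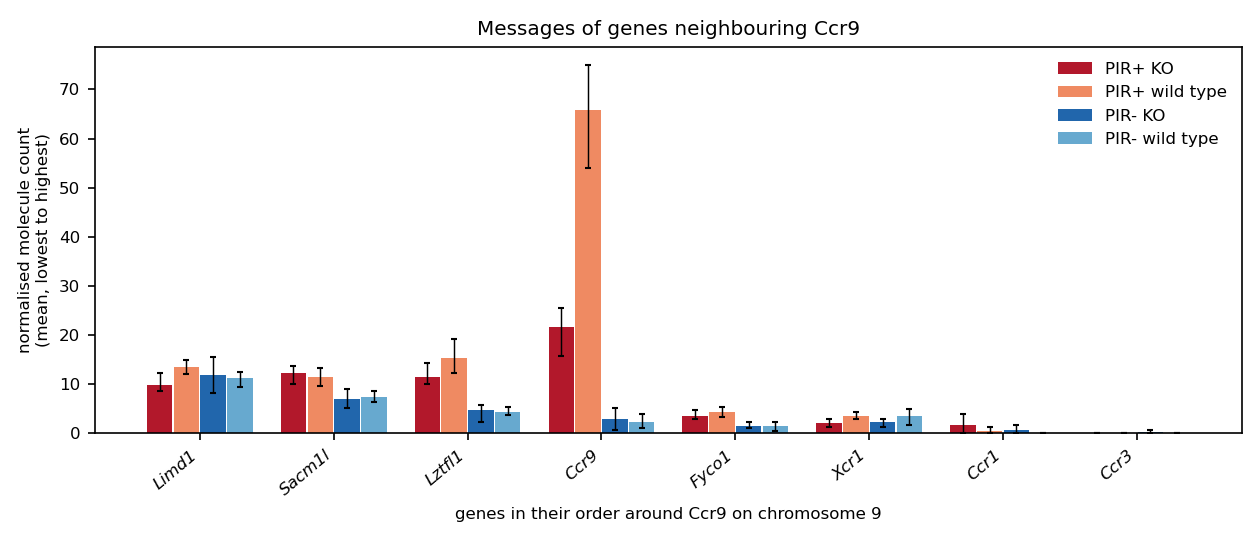
Mean normalised molecule count (y axis, linear from 0) of Ccr9 and of the neighbouring genes above 0 in at least 1 library, in their order along chromosome 9, for the 4 groups (n = 3 each); error bars run from the lowest to the highest library. The Ccr9 bar reaches 21.6 in PIR+ KO, against 65.8 in PIR+ wild type, while the KO and wild type bars of Lztfl1 in PIR+ cells overlap in their ranges.

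Promoters were printed for 3 members: Ccr9, which fell in PIR+ KO cells, Cxcr4, which went the other way between the subsets, and Itga4, which alone held the first motif. Each RefSeq promoter of GRCm38.p6 runs from 250 bases before to 50 bases after a gene start. Promoters were found for 5 of the 8 members (Ccr9, Cxcr4, Itga4, Itgb7 and Itgb1). They were searched on both strands for the Runx core letters TGTGGT and TGCGGT and the E-box letters CAGGTG, which do not overlap one another in these windows. The reason for the Runx core is that Cbfb, the partner subunit of Runx factors, was low in KO cells: 12.1, 15.7 and 16.0 in PIR+ KO, against 55.8, 44.1 and 50.8 in PIR+ wild type libraries. Of 32851 promoters of the same length, 16.8% held TGTGGT, 6.45% TGCGGT and 20.2% CAGGTG. Capitals below mark a match. Ccr9 lies at chr9:123766961-123767260 (plus strand), Cxcr4 at chr1:128592250-128592549 (minus strand) and Itga4 at chr2:79255176-79255475 (plus strand).
Ccr9: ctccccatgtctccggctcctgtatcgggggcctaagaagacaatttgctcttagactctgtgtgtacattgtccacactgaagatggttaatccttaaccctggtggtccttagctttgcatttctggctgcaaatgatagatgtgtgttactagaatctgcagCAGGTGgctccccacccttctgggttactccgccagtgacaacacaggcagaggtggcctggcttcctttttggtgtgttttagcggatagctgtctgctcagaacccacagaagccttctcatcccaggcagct
Cxcr4: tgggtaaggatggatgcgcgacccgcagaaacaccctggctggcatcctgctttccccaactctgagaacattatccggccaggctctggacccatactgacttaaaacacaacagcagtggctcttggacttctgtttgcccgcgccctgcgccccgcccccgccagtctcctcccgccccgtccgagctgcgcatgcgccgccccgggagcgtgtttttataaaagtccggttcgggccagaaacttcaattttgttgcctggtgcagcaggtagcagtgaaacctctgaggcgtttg
Itga4: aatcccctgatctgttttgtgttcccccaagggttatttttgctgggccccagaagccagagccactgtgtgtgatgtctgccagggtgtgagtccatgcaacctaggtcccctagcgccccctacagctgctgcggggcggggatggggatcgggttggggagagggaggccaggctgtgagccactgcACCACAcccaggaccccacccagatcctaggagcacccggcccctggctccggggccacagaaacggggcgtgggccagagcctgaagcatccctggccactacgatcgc
The Ccr9 window held CAGGTG once, starting 85 bases before the gene start, and neither Runx form. The Cxcr4 window held none of the 3. The Itga4 window held TGTGGT once on the opposite strand, so that it reads ACCACA, 60 bases before the start. The Itgb7 and Itgb1 windows held none. The Itgb7 window (chr15:102231886-102232185, minus strand) lies inside the gene span given below, so it is not at the outer start of that span. A match of 6 letters is a description of the sequence and no evidence of binding.

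Ccr7, the receptor for CCL19 and CCL21 (chromosome 11, 99144199 to 99155077), had 6.7, 4.9 and 7.6 in PIR+ KO, against 12.1, 18.4 and 14.9 in PIR+ wild type libraries. It had 1.1, 0.6 and 0.7 in PIR- KO and 0, 0.8 and 0 in PIR- wild type libraries. Neither PIR+ group overlapped its PIR- group, and every PIR+ KO library lay below every PIR+ wild type library. PIR+ over PIR- was 2.03 ± 0.48 in KO (limma, adjusted p = 0.000739) and 3.71 ± 0.48 in wild type (limma, adjusted p = 4.42e-10). In wild type the estimated molecules were 69 in PIR+ and 1 in PIR- libraries, a ratio of 49.4 per library total with an exact 95% counting interval of 8.57 to 1977. Only the PIR+ wild type libraries brought Ccr7 over the filter, so it had to differ from the other groups.

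The KO effect on Ccr7 in PIR+ cells was -1.12 ± 0.48 and did not pass (limma, adjusted p = 0.559), a ratio of means of 0.423. It passed where the fit held only the PIR+ libraries (limma, adjusted p = 0.0380) and in none of the other 23 alternatives. The authors' deposited table gives p-values of 1.01e-06 for the subsets in wild type and 0.00269 for PIR+ KO against PIR+ wild type. In PIR- cells, where 1 to 2 molecules per KO library and 0 to 1 per wild type library were counted, a change in Ccr7 was not detectable at this depth.

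Cxcr4, the CXCL12 receptor (chromosome 1, 128588199 to 128592299), had 3.0, 4.9 and 6.8 in PIR+ KO, against 14.3, 12.7 and 16.9 in PIR- KO libraries. In PIR+ wild type it had 7.0 in replicate 1, 13 in replicate 2 (to the nearest whole number) and 7.5 in replicate 3, against 11.7, 15.5 and 19.4 in PIR- wild type libraries. The subsets did not overlap in KO, while in wild type the PIR+ replicate 2 lay above the PIR- replicate 1. Cxcr4 reached 10 in 7 libraries, of which only PIR+ wild type replicate 2 was a PIR+ library. It thus passed the filter mainly through the subset in which it was high. PIR+ over PIR- was -1.45 ± 0.32 in KO (limma, adjusted p = 0.000221), and this call was lost only with the 6 libraries in which title and markers field name 1 subset (limma, adjusted p = 0.0982), among 24 alternatives. In wild type it was -0.74 ± 0.32, just inside the threshold (limma, adjusted p = 0.05 after rounding), and passed under 11 of 24 alternatives. Leaving out any of 7 libraries ended that call (PIR+ wild type replicates 1 and 3, PIR- wild type replicates 2 and 3, and each of the 3 PIR- KO libraries), with limma adjusted p from 0.0505 to 0.173. The adjusted p-values over those alternatives ran from 0.00163 to 0.694, and the sign was negative in each.

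Cxcr4 in PIR+ cells was lower in all 3 KO libraries than in the 3 wild type libraries, by -0.77 ± 0.32, which did not pass (limma, adjusted p = 0.509). In the authors' deposited table its p-values were 0.00221 for the subsets in wild type and 0.0809 for PIR+ KO against PIR+ wild type. B-lineage marker sums, given above, were also higher in PIR- libraries, and their part in the Cxcr4 level was not tested. Mzb1, Ets1 and Aff1 were picked as the 3 genes whose pattern over the 12 libraries was most like that of Cxcr4. Their higher values in PIR- libraries therefore followed from the choice and are a description only. Mzb1 had means of 22.3 in PIR+ KO, 116 in PIR- KO, 29.8 in PIR+ wild type and 116 in PIR- wild type. Aff1 passed the filter only through its PIR- libraries.

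Selplg, which encodes the P-selectin ligand PSGL-1 (chromosome 5, 113817798 to 113832528), had 24.2, 23.0 and 33.5 in PIR+ KO, against 40.6, 52.0 and 53.6 in PIR+ wild type libraries. It had 27.0, 26.5 and 41.9 in PIR- KO and 31.8, 31.0 and 30.3 in PIR- wild type libraries. The 3 PIR+ wild type libraries lay above all others except that PIR- KO replicate 3 exceeded the lowest of them. KO over wild type in PIR+ cells was -0.84 ± 0.23 (limma, adjusted p = 0.0404), a ratio of means of 0.552. The call was lost under 10 of 24 alternatives. Among these, limma adjusted p was 0.259 without the PIR+ wild type replicate 2, 0.190 without the PIR+ wild type replicate 3, 0.255 without the PIR+ KO replicate 1 and 0.214 without the PIR+ KO replicate 2.

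After median-of-ratios scaling the Selplg effect was -0.94 (limma, adjusted p = 0.000807), and Ccr9 and Selplg were then again the 2 members called, where 0.638% of genes were called lower. The authors' deposited table gives a p-value of 5.46e-05 for this contrast. Within E12.5 the contrast was -0.44 (1 PIR+ KO and 2 PIR+ wild type libraries) and within E14.5 it was -1.15 (2 PIR+ KO and 1 PIR+ wild type libraries). With embryonic day as a term in the fit of all libraries it was -0.85, and the call was lost (limma, adjusted p = 0.0625). In PIR- cells Selplg differed by 0.00 ± 0.23 (limma, adjusted p = 0.998), and the difference of the 2 KO effects, -0.85 ± 0.32, did not pass (limma, adjusted p = 0.484).

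Between subsets, Selplg depended on the scale. PIR+ over PIR- in KO was -0.22 ± 0.23 as deposited (limma, adjusted p = 0.464) and -0.61 after median-of-ratios scaling (limma, adjusted p = 0.00625). In wild type it was 0.62 ± 0.23 as deposited (limma, adjusted p = 0.0201) and 0.12 after scaling (limma, adjusted p = 0.644). The wild type call was also lost without the PIR+ wild type replicate 2 (limma, adjusted p = 0.0776) or replicate 3 (limma, adjusted p = 0.0904). The authors' deposited p-value for the subsets in wild type was 0.546.

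Itga4, the alpha subunit shared by the VCAM-1 and MAdCAM-1 receptors (chromosome 2, 79255426 to 79333114), had 50.3, 50.9 and 76.8 in PIR+ KO and 63.5, 73.7 and 68.5 in PIR+ wild type libraries. It had 67.3, 64.0 and 77.1 in PIR- KO, against 42.9, 39.5 and 52.0 in PIR- wild type libraries. The PIR- wild type group was the low one: it overlapped neither PIR+ wild type nor PIR- KO. PIR+ over PIR- was -0.25 ± 0.20 in KO (limma, adjusted p = 0.348), and -0.64 after median-of-ratios scaling (limma, adjusted p = 0.000448). In wild type it was 0.61 ± 0.20 (limma, adjusted p = 0.0107). That call was lost after median-of-ratios scaling (0.10, limma, adjusted p = 0.624), without the PIR+ wild type replicate 2 (limma, adjusted p = 0.0541) and without the PIR- wild type replicate 2 (limma, adjusted p = 0.0640).

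KO over wild type for Itga4 in PIR- cells was 0.63 ± 0.20 and did not pass (limma, adjusted p = 0.114). In PIR+ cells it was -0.23 ± 0.20 (limma, adjusted p = 0.936). The difference of the 2, -0.86 ± 0.28, did not pass as deposited (limma, adjusted p = 0.285) and passed after median-of-ratios scaling (-0.75, limma, adjusted p = 0.0426). Itga4 overlaps Cerkl in the annotation, and the sources used here do not say whether reads were counted by strand, so reads of the overlap could belong to either gene.

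Itgb1, the beta subunit of the VCAM-1 and fibronectin receptors (chromosome 8, 128685654 to 128733579), had 26.1, 26.0 and 38.0 in PIR+ KO, against 16.9, 10.4 and 20.6 in PIR- KO libraries. It had 24.7, 30.3 and 25.8 in PIR+ wild type, against 13.8, 13.9 and 15.5 in PIR- wild type libraries. PIR+ exceeded PIR- without overlap in both genotypes, and the KO and wild type libraries overlapped within each subset. PIR+ over PIR- was 0.90 ± 0.25 in KO (limma, adjusted p = 0.00500) and 0.86 ± 0.25 in wild type (limma, adjusted p = 0.00494). After median-of-ratios scaling these were 0.51 (limma, adjusted p = 0.0942) and 0.37 (limma, adjusted p = 0.224), neither past the threshold. The KO call was also lost without the PIR+ KO replicate 3 (limma, adjusted p = 0.0680) and without the PIR- KO replicate 2 (limma, adjusted p = 0.103). Averaged over genotype, the subset difference of 0.88 (limma, where 55% of all genes were called higher) passed in each of 23 alternatives, both scalings among them, with limma adjusted p from 7.93e-06 to 0.0224.

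Itgb7, the beta subunit that pairs with ITGA4 to bind MAdCAM-1 (chromosome 15, 102215994 to 102233405), was below the filter, with no library at 10. It had 3.6, 0.5 and 3.0 in PIR+ KO, against 0, 0 and 0.7 in PIR- KO libraries. It had 3.8, 7.2 and 2.0 in PIR+ wild type libraries and was listed at 0 in the 3 PIR- wild type libraries. In a fit without the filter, over 14177 genes, the subset difference passed in wild type (limma, adjusted p = 0.00170), with no fold given against a group at 0. In KO it did not pass (1.34 ± 0.47, limma, adjusted p = 0.0794), with 11 estimated molecules in PIR+ and 1 in PIR- libraries, a ratio of 8.64 and an exact 95% counting interval of 1.26 to 372. Without the PIR+ KO replicate 2, the library at 0.5, it passed (1.85, limma, adjusted p = 0.0342).

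The log2 ratio of Itgb7 to Itgb1 within a library, with 1 added to each, averaged -2.92 ± 0.79 in the 6 PIR+ and -3.86 ± 0.24 in the 6 PIR- libraries (SD). The difference of 0.94 gave p = 0.0238 in an exact two-sided permutation test, whose smallest possible p is 0.00216. With Itgb7 at 0 in 5 PIR- libraries, the ratio there is set by the added 1, and with 5 added in its place the difference was -0.07 (exact permutation p = 0.703). KO minus wild type was -0.34, with means of -3.56 ± 0.60 in KO and -3.22 ± 0.88 in wild type (SD, n = 6 each, exact permutation p = 0.444).

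S1pr1, the receptor for sphingosine 1-phosphate (chromosome 3, 115710433 to 115715055), stayed at 4.8 or less in all 12 libraries. It had 4.8, 1.5 and 3.0 in PIR+ KO and 3.8, 2.6 and 1.4 in PIR+ wild type libraries. It had 2.6, 2.9 and 1.5 in PIR- KO and 0, 0.8 and 1.6 in PIR- wild type libraries. The groups overlapped in every comparison. In the fit without the filter PIR+ over PIR- was 0.24 ± 0.48 in KO (limma, adjusted p = 0.821) and 1.05 ± 0.48 in wild type (limma, adjusted p = 0.146). In wild type 12 estimated molecules in PIR+ stood against 3 in PIR- libraries, and the exact 95% counting interval of their ratio, 0.77 to 15.8, includes no difference, so none was detectable at this depth.

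Many genes were called between the subsets. In KO, 3 of the 6 tested members were higher in PIR+ cells, where 22.5% of all 4542 genes were higher, and Cxcr4 was lower, where 2.97% were. In wild type, 5 of the 6 were higher, where 40.6% of all genes were, and Cxcr4 was lower, where 3.72% were. Ccr9 and Ccr7 passed the filter only through PIR+ libraries, so the filter set their direction. The counts of tested members in this paragraph include them. Cxcr4 passed the filter mainly through PIR- libraries, where it was high. The median gene itself was higher in PIR+ cells by 0.39 in KO and 0.51 in wild type on the deposited scale. After median-of-ratios scaling, which moves that median close to 0, Ccr9 and Ccr7 remained higher and Cxcr4 lower in both genotypes, while 8.12% of genes were higher and 7.51% lower in KO, and 11.5% higher and 11% lower in wild type. Over all 8 members without the filter, the median log2 difference was 0.57 in KO and 0.95 in wild type, beside medians of 0.26 and 0.31 over 14177 genes. There, 4 of 8 were called in KO, 3 of them higher, beside 8.7% of genes, and 6 of 8 in wild type, each higher, beside 16.1%. The libraries of the subsets did not overlap for 3 higher members in KO, beside 35.7% of genes, and for 1 lower member, beside 3.43%. In wild type they did not overlap for 5 higher members, beside 47.6%.

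**Figure D3:**
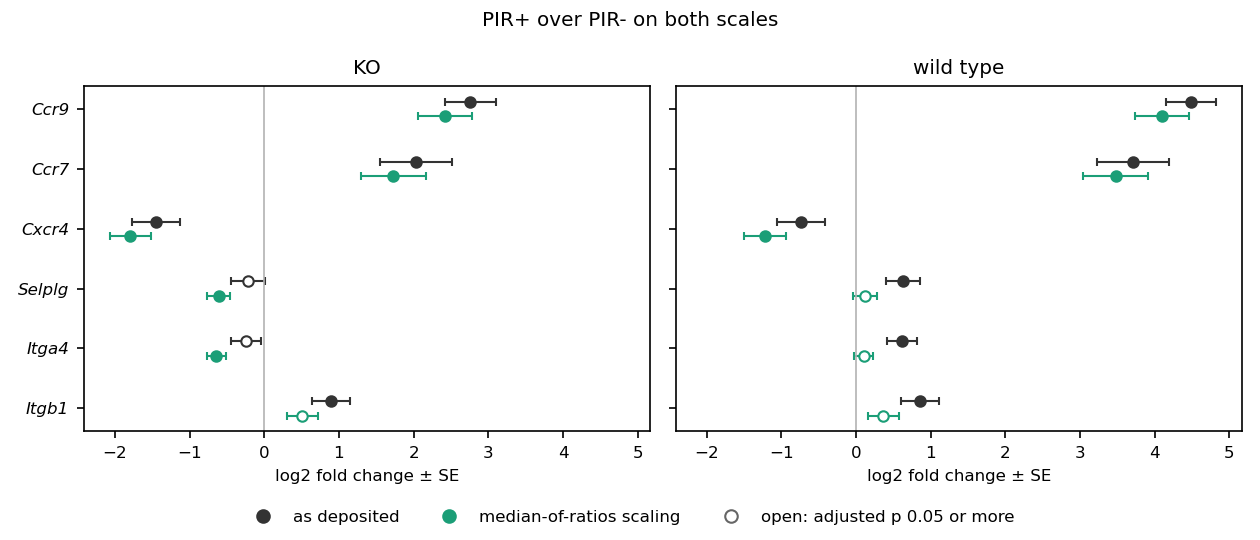
Log2 fold change of PIR+ over PIR- (x axis, error bars are SE) for the 6 tested members in KO (left) and wild type (right), as deposited (black) and after median-of-ratios scaling (green); filled points have an adjusted p under 0.05. Ccr9 and Ccr7 lie right of 0 and Cxcr4 left of 0 on both scales in both genotypes, while Selplg and Itga4 are filled on 1 scale only in each genotype.

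Between genotypes calls were rare. In PIR+ cells, 2 of the 6 tested members (Ccr9 and Selplg) were lower in KO, where 0.462% of all genes were lower and 0.903% were called in either direction. The libraries of KO and wild type did not overlap for 4 of the 6, Ccr9, Ccr7, Cxcr4 and Selplg. Each was lower in KO, where 3.04% of all genes were lower without overlap. Ccr7 passed the filter only through its PIR+ wild type libraries, so its lack of overlap was set by the filter and does not add to that count. Over all 8 members without the filter the median was -0.74, beside 0.05 over 14177 genes, and none was called, beside 0.367% of genes. In that fit limma gave an adjusted p of 0.0961 for Ccr9 and 0.0992 for Selplg, and 4 of the 8 members had an unadjusted p under 0.05, beside 7.48% of genes. The 4 groups enter 2 comparisons each, so a KO comparison and a subset comparison that meet in a group share its 3 libraries.

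In PIR- cells, 0 of the 6 tested members were called by limma, where 1.3% of genes were, and 1 of the 6, Itga4, had an unadjusted p under 0.05, beside 13.8% of genes. Itga4 was also the only one of the 6 without overlap between KO and wild type, where 15.4% of genes had none. For the difference of the KO effects between subsets, 0 of 6 were called by limma, beside 0.572% of genes. There 4 of the 6 had an unadjusted p under 0.05 (Ccr9, Ccr7, Selplg and Itga4), beside 5.5% of genes. They include Ccr7, whose lower PIR+ KO values were a condition of its being tested.

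**Figure D4:**
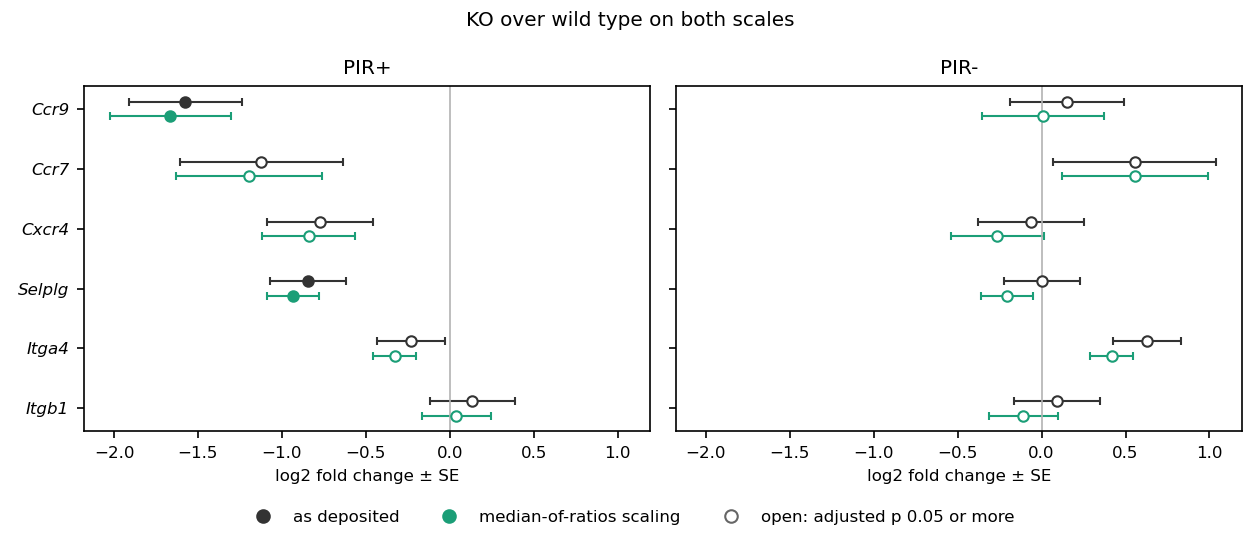
Log2 fold change of KO over wild type (x axis, error bars are SE) for the 6 tested members in PIR+ (left) and PIR- cells (right), as deposited (black) and after median-of-ratios scaling (green); filled points have an adjusted p under 0.05. Ccr9 and Selplg are filled left of 0 in PIR+ cells on both scales, and no point is filled in PIR- cells.

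Other messages moved with the KO contrast in PIR+ cells. Markers of the T lineage and thymus seeding (12 genes, none a member) summed to 52.5 to 84.8 in PIR+ KO and 92.1 to 104 in PIR+ wild type libraries, with Bcl11b, Cd3e and Cd3d at 0 in both groups. Most of that sum was Notch1, which overlapped (48 to 76.8 in PIR+ KO and 49.3 to 71.2 in PIR+ wild type libraries). Cd7 ran from 0 to 0.5 in PIR+ KO and from 14.9 to 21.6 in PIR+ wild type libraries, and Lck from 1 to 1.8 in PIR+ KO and from 7 to 11.8 in PIR+ wild type libraries. Endothelial markers (7 genes) summed to 131 to 183 in PIR+ KO and 66.6 to 84.1 in PIR+ wild type libraries, mostly Egfl7, with the defining gene Kdr at 0 in both. The female-specific message Xist was 31.3 to 34.2 in PIR+ KO and 12.7 to 18.4 in PIR+ wild type libraries, and the Y-linked Ddx3y was 0.8 to 2.0 in PIR+ KO and 5.4 to 7.9 in PIR+ wild type libraries. In PIR- KO libraries Xist was 6.9 to 14.7 and Ddx3y 7.3 to 9.2, so both also separated the subsets of KO. In PIR- wild type libraries Xist was 2.7 to 18.6 and Ddx3y 4.2 to 7.8, overlapping PIR+ wild type. The part of sex in the subset contrasts was not tested. Cbfb was lower in KO by -1.72 in PIR+ cells (limma, adjusted p = 6.65e-07) and by -1.45 in PIR- cells (limma, adjusted p = 3.79e-05). Their part in the Ccr9 and Selplg differences was not tested.

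Red cell messages were high in 5 libraries (Hba-a1 above 100): PIR+ KO replicate 1, PIR+ wild type replicate 3, PIR- KO replicate 1 and PIR- wild type replicates 2 and 3. Without those 5, the KO effect in PIR+ cells was -1.34 for Ccr9 (limma, adjusted p = 0.0614) and -0.71 for Selplg (limma, adjusted p = 0.570). With the 6 libraries in which title and markers field name 1 subset it was -1.39 for Ccr9 (limma, adjusted p = 0.122) and -0.44 for Selplg (limma, adjusted p = 0.399). The subset differences of Ccr9 and Ccr7 passed in all 24 alternatives in each genotype, these 2 included. Both genes passed the filter only through PIR+ libraries, so wherever it was used their direction was a condition of being tested.

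Markers of other cell types also moved with the subset contrast in which Ccr9 and Ccr7 were high. Macrophage and neutrophil markers summed to 83.8 to 145 in PIR+ KO, 93.8 to 127 in PIR+ wild type, 28.5 to 56.1 in PIR- KO and 8.3 to 22.4 in PIR- wild type libraries, with Ctsg at 0 in every group. Most of the PIR+ sum was Mpo (41.1 to 57 in PIR+ KO and 47 to 66.4 in PIR+ wild type libraries), Csf1r and Prtn3. Emr1, Cd68, Lyz1, Elane and Ly6c2 stayed at 2.7 or less in every library. NK and innate lymphoid markers summed to 22.1 to 45.6 in PIR+ KO, 46.3 to 90.7 in PIR+ wild type, 1.6 to 4.4 in PIR- KO and 0.5 to 1.6 in PIR- wild type libraries, with Ncr1, Tbx21 and Rora at 0 in every group. Most of the PIR+ sum was Id2, which is not particular to these cells (15.2 to 28.1 in PIR+ KO and 38.1 to 73 in PIR+ wild type libraries). Endothelial markers summed to 50.3 to 66.1 in PIR- KO and 22.5 to 48.2 in PIR- wild type libraries, below the PIR+ sums of the same genotype given above. Megakaryocyte and platelet markers summed to 12.6 to 20.6 in PIR+ KO, 6.1 to 15.8 in PIR+ wild type, 1.1 to 2.9 in PIR- KO and 1.6 to 5.6 in PIR- wild type libraries, with Gp1ba at 0 in every group. Their part in the Ccr9 and Ccr7 levels was not tested.

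The genes most like each tested member over the 12 libraries were found by Pearson r of log2(value + 1) among the 4542 tested genes, as a description. Of the tested genes, 10.7% reached 10 in PIR+ libraries only and 1.61% in PIR- libraries only. For Ccr9 they were Fbxw4 (r = 0.978), Lsp1 (r = 0.973) and Mboat7 (r = 0.962). Lsp1, a leukocyte actin-binding protein, averaged 102 ± 14.4 in PIR+ KO, 134 ± 14.6 in PIR+ wild type, 39.8 ± 7.94 in PIR- KO and 38.4 ± 3.18 in PIR- wild type libraries (SD, n = 3 each). For Ccr7 they were S100a11 (r = 0.977), Cd27 (r = 0.965) and Emp3 (r = 0.964). Fbxw4, Mboat7, S100a11 and Cd27 reached 10 in PIR+ libraries only, so the filter set their subset direction. Cd27, a lymphocyte costimulatory receptor also found on early progenitors, averaged 22.6 ± 6.26 in PIR+ KO, 36.0 ± 8.74 in PIR+ wild type, 4.90 ± 1.25 in PIR- KO and 2.37 ± 0.80 in PIR- wild type libraries (SD, n = 3 each). Ccr9 and Ccr7 themselves had r = 0.938 with each other, and the 12 points share libraries, depth and the split into subsets.

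For Cxcr4 the likest genes were Mzb1, a B-cell chaperone cofactor, and the transcription factor Ets1 (r = 0.912 each), followed by Aff1 (r = 0.911). Hspbp1 (r = 0.902), Mlec (r = 0.882) and Zc3h4 (r = 0.873) were likest to Selplg, and Med25 (r = 0.892), Mll5 (r = 0.889) and Cpne1 (r = 0.884) to Itga4. For Itgb1 they were Tmbim6 (r = 0.969), Ncoa3 (r = 0.966) and Samhd1 (r = 0.963). Samhd1, a dNTP hydrolase, averaged 37.1 ± 11.3 in PIR+ KO, 36.1 ± 2.27 in PIR+ wild type, 9.07 ± 5.15 in PIR- KO and 7.03 ± 1.97 in PIR- wild type libraries (SD, n = 3 each).

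Partners of the members in the same pathways were taken as lists. Of 11 genes for ligands of the members, none reached the filter, and the highest value in any library was 3.9, for fibronectin (Fn1). Ccl19 and the 3 Ccl21 genes were at 0 in all 12 libraries, and Ccl25 reached 2.9. Of 19 other chemokine receptors, only Cxcr2, a receptor for neutrophil-attracting chemokines, was tested. It averaged 116 ± 38.4 in PIR+ KO, 133 ± 15.7 in PIR+ wild type, 115 ± 18.8 in PIR- KO and 122 ± 17.4 in PIR- wild type libraries (SD, n = 3 each) and was not called in any comparison as deposited. After median-of-ratios scaling it was lower in PIR+ cells, by -0.43 in KO (limma, adjusted p = 0.0126) and -0.38 in wild type (limma, adjusted p = 0.0231). Ccr2, a chemokine receptor of monocytes that lies beyond the window read around Ccr9, was below the filter. It ran from 2 to 4.6 in PIR+ KO, from 5.7 to 15.8 in PIR+ wild type, from 0.5 to 1.7 in PIR- KO and from 0 to 0.5 in PIR- wild type libraries. Without the filter it was higher in PIR+ cells of wild type (limma, adjusted p = 6.50e-05) and did not pass in KO (limma, adjusted p = 0.191), and its KO effect in PIR+ cells of -1.39, without overlap, did not pass (limma, adjusted p = 0.350). Closely related receptor genes can share reads, so these values are uncertain.

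Among 15 genes for selectins and for the sugar coats and scaffolds of their ligands, 6 were tested, of which 3 were higher and 1 lower in PIR+ cells of KO, beside 22.5% and 2.97% of all genes, and 4 higher and 1 lower in wild type, beside 40.6% and 3.72%. Cd34, a progenitor sialomucin, averaged 182 ± 25.6 in PIR+ KO, 19.8 ± 1.30 in PIR- KO, 153 ± 19.8 in PIR+ wild type and 6.03 ± 1.74 in PIR- wild type libraries (SD, n = 3 each). Cd44, the hyaluronan receptor, was higher in both genotypes (log2 difference 1.12 in KO and 1.80 in wild type), Tpst2, a sulfating enzyme that acts on PSGL-1, was higher in both (by 1.61 in KO and 1.06 in wild type, where the libraries overlapped and the call was lost after median-of-ratios scaling, at 0.62 with a limma adjusted p of 0.236), and Cd24a was lower in both (by -3.71 in KO and -3.20 in wild type). B4galt1, a galactosyltransferase, had 0.23 in KO, which did not pass (limma, adjusted p = 0.548), and was higher in wild type (by 1.24).

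In PIR+ cells, St3gal6, a sialyltransferase that helps build selectin ligands, was higher in KO, at 18.6 to 20.5 in PIR+ KO against 3.8 to 8.5 in PIR+ wild type libraries (1.61 ± 0.31, limma, adjusted p = 0.000416). Selplg, whose product carries such sugars, was lower in the same contrast. No other gene of the list was called between KO and wild type in PIR+ cells, and Cd34 alone was called in PIR- cells, where it was higher in KO (1.59 ± 0.21, limma, adjusted p = 6.10e-08).

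Of 24 other integrin genes, Itgal and Itgb2, the 2 subunits of the leukocyte integrin LFA-1, were the only ones tested. Both reached 10 in PIR+ libraries only, so every integrin of the list that was tested had to be higher there. Itgal averaged 14.7 ± 2.79 in PIR+ KO, 3.13 ± 1.29 in PIR- KO, 14.2 ± 0.91 in PIR+ wild type and 2.27 ± 1.45 in PIR- wild type libraries (SD, n = 3 each). Itgb2 averaged 18.7 ± 5.58 in PIR+ KO, 2.40 ± 0.44 in PIR- KO, 11.9 ± 3.70 in PIR+ wild type and 1.57 ± 1.55 in PIR- wild type libraries (SD, n = 3 each).

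Of 27 genes that activate integrins or link them to actin, 20 were tested, and in PIR+ cells 11 were higher and 3 lower in KO, and 15 higher and 3 lower in wild type, beside 22.5% and 2.97% of all genes in KO and 40.6% and 3.72% in wild type. Their median was 0.70 in KO and 1.04 in wild type, beside 0.39 and 0.51 for all tested genes. Zyx, the focal adhesion protein zyxin, averaged 73.3 ± 26.0 in PIR+ KO, 16.6 ± 3.21 in PIR- KO, 74.3 ± 7.28 in PIR+ wild type and 10.8 ± 2.77 in PIR- wild type libraries (SD, n = 3 each). Vcl, which encodes vinculin, was the 1 gene of the list called between genotypes within a subset, at 27.9 to 38.8 in PIR+ KO against 11.4 to 18.3 in PIR+ wild type libraries (1.14 ± 0.31, limma, adjusted p = 0.0454). Pxn, which encodes paxillin, was higher in PIR+ cells of both genotypes (by 1.18 in KO and 1.74 in wild type). Of the 20, 3 reached 10 in PIR+ libraries only (Vcl, Ptk2b and Cd9, a tetraspanin that binds integrins) and 2 in PIR- libraries only (Cyth1 and Cytip, which restrains integrin adhesion), so their subset directions were set by the filter.

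Of 14 genes for sphingosine 1-phosphate receptors, its metabolism and the control of S1pr1, 4 were tested, and in PIR+ cells 1 was higher and 2 lower in KO, and 1 higher and 3 lower in wild type. Of all 4542 genes, 22.5% were higher and 2.97% lower in KO, and 40.6% higher and 3.72% lower in wild type. Of these 4, Spns2 reached 10 in PIR+ libraries only, and Foxo1 and S1pr4 in PIR- libraries only, so their subset directions were set by the filter and their values are given as a description. Spns2, a sphingosine 1-phosphate exporter, averaged 12.97 ± 1.32 in PIR+ KO, 0.73 ± 0.87 in PIR- KO, 14.2 ± 3.61 in PIR+ wild type and 0.27 ± 0.46 in PIR- wild type libraries (SD, n = 3 each). Foxo1, a transcription factor of lymphocyte homing genes, averaged 4.60 ± 1.95 in PIR+ KO, 34.0 ± 9.89 in PIR- KO, 4.33 ± 0.40 in PIR+ wild type and 39.9 ± 3.72 in PIR- wild type libraries (SD, n = 3 each). The receptor S1pr4 had a log2 difference of -1.34 in KO and -0.88 in wild type. Adrbk1, the kinase GRK2 that desensitises such receptors, had -0.51 in KO, which did not pass (limma, adjusted p = 0.0622), and was lower in wild type (-0.96).

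Of 29 genes for chemokine receptor signalling and cell motility, 25 were tested, and in PIR+ cells 18 were higher and 1 lower in KO, and 18 higher in wild type, beside 22.5% of all genes higher and 2.97% lower in KO and 40.6% higher in wild type. After median-of-ratios scaling 13 were higher and 2 lower in KO, beside 8.12% and 7.51%, and 13 higher and 1 lower in wild type, beside 11.5% and 11%. Of the 25, Rgs18, Rgs10 and Dock8 reached 10 in PIR+ libraries only, so the filter set the subset direction of these 3. The counts above include them, and their values are given as a description. The regulators of G-protein signalling Rgs18, Rgs10 and Rgs2 had the largest log2 rises of the list, Rgs18 by 2.99 in KO and 4.03 in wild type. Rgs10 averaged 24.3 ± 7.37 in PIR+ KO, 5.10 ± 2.78 in PIR- KO, 27.3 ± 6.35 in PIR+ wild type and 5.13 ± 2.75 in PIR- wild type libraries (SD, n = 3 each). Dock8, a guanine exchange factor of migrating leukocytes, had a log2 difference of 1.42 in KO and 1.74 in wild type. Wipf1, a partner of the Wiskott-Aldrich syndrome protein, was higher by 1.16 in KO and 1.79 in wild type.

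**Figure D5:**
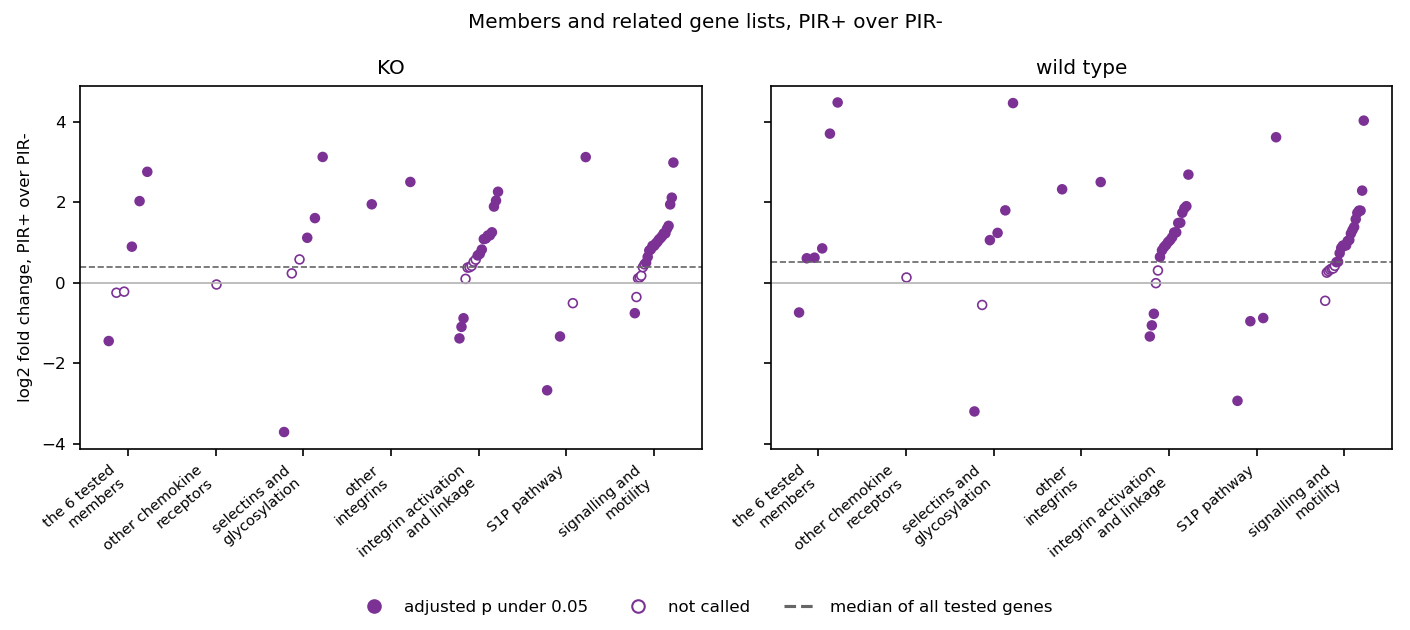
Log2 fold change of PIR+ over PIR- (y axis) for each tested gene of the members and of 6 related lists, in KO (left) and wild type (right); each point is 1 gene, filled where the adjusted p is under 0.05, and the dashed line is the median of all 4542 tested genes (0.39 in KO, 0.51 in wild type). Both other integrin genes tested lie above 0, as the filter required of genes that reached 10 in PIR+ libraries only. Ccr9 and Ccr7, which also reached 10 in PIR+ libraries only, are the top points of the members.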

How the data were processed

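Each library was made from sorted cells to which ERCC spike-in RNA had been added, with an oligo-dT primer that carries a molecular barcode, per the labels' protocols. The deposited table holds a signal value per gene and library: barcoded molecules, scaled by the authors with 1 factor per library and kept to 1 decimal, as the values show. TopHat2, mm10 and DESeq2 are named in the submitters' processing notes, with versions, counter and annotation not given in the sources used here. The authors also deposited p-values for 2 comparisons, with no statement of adjustment. Between 93.0% and 94.2% of values under 15 lie within 0.055 of a multiple of the library's step (0.490 to 0.775), so molecules (208195 to 442533 per library) are estimates, intervals cover counting error only, and no count test was run.

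All tests across genes used R 4.3.3 and limma 3.58.1 (trended prior, 4 group means) on log2(value + 1), for genes that reached 10 in 3 or more libraries (4542 of 23420 genes), and Benjamini-Hochberg adjustment. Members below the filter (Itgb7, S1pr1) were read from a fit over the 14177 genes above 0. The fit was tested on simulated data. Median-of-ratios scaling, library sums, pseudocounts, filters, each library left out, a replicate block, embryonic day and library subsets were the alternatives. Python 3.11.15, scipy 1.17.1 and matplotlib 3.10.9 were used for intervals and figures. Locations and promoters are from RefSeq (GRCm38.p6), the build of mm10.

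The members and lists were chosen with earlier results of these data known. Named genes were all members, the 3 genes most like each tested member, and up to 4 called genes per list and comparison with the largest absolute fold change. Cbfb, Cxcr2, Ccr2 and the neighbours of Ccr9 were named after their values were seen. Some genes of the related lists are not reported here, and the lists were counted without them.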

Additional observations from a re-analysis of the deposited data

How the results depend on the processing

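Of 1320 alternatives for single members, 1244 kept their side of the threshold, 55 lost a call, 20 gained one and 1 reversed. The reversed one was Itga4, PIR+ over PIR- averaged over genotype, at -0.27 after median-of-ratios scaling. A change of sign was counted only where the reported fit or the alternative passed. Among results that did not pass, signs also changed, as for Cxcr4 between KO and wild type in PIR- cells (5 of 24 alternatives). In wild type, the number of members called between subsets was 6, and 3 after either scaling, 3 with the 6 libraries in which title and markers field name 1 subset and 2 without the 5 globin-rich libraries. With each of the last 2 sets, Itgb7 was not called in wild type or on average (0 members below the filter). In KO, the members below the filter called were 0 to 1 with 1 library left out. KO calls in PIR+ cells (2) became 0 with a pseudocount of 0.1, no filter, limma without trend or either library subset, 1 with embryonic day as a term, and 1 to 2 with 1 library left out. The difference of KO effects (0) became 1 under both scalings, a pseudocount of 5, or embryonic day as a term, and ran from 0 to 1 with 1 library left out. The average KO effect (0) became 1 under both scalings or a pseudocount of 5, and ran from 0 to 1 with 1 library left out. The Itgb7 to Itgb1 ratio difference between subsets was -0.069 with a pseudocount of 5, 1.14 with the 6 matching libraries (exact permutation p = 0.1, the smallest such a split allows) and 0.74 without the globin-rich ones (exact permutation p = 0.314). Causes were not tested. Genes called ran from 576 to 1684 (1158 in the reported fit) and 700 to 2409 (2015) between subsets in KO and wild type, and from 20 to 62 (41) and 28 to 209 (59) for KO in PIR+ and PIR- cells.

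Samples with the same replicate number deviated together in 1 of 18 pairs (r over 0.1), and 4 of 12 libraries correlated best with their own number. With 3 libraries in each group, such correlations cannot tell whether libraries of the same number were paired. With the replicate block, 1 member was called for KO in PIR- cells (Itga4, limma, adjusted p = 0.0101), 1 for the difference of KO effects (Itga4, limma, adjusted p = 0.0412) and 1 for the average KO effect. Depth limits Itgb7, S1pr1 and the PIR- values of Ccr9 and Ccr7, which rest on 7 molecules per library or fewer in PIR- libraries.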
